A study of Mus musculus with 4 samples.

Results

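The genes described here are 32 genes of sterol synthesis and of the SREBP pathway, taken by their symbols from count tables of 31748 genes. All 32 symbols were found, and all 32 were among the 12752 genes that passed the filter on low counts. The data are 4 RNA-seq libraries from spleen cells labelled CD4+ T cells, 2 of genotype TEaWT (WT) and 2 of genotype TEaMthfd2 KO (KO). TEa is a transgenic T cell receptor that recognises a donor peptide, and the T cells of both groups carry it. T cells of 8-week-old mice were positively selected on magnetic beads and kept for 3 days with antigen-presenting cells (APCs), which were sorted from spleens of F1 (BALB/c x C57BL/6) mice of the same age and treated with mitomycin. Mthfd2, the gene named in the KO genotype, encodes a dehydrogenase and cyclohydrolase of mitochondria that passes on one-carbon units bound to folate. The labels give neither the deleted part of the gene, nor the cells in which it was deleted, nor whether replicates are separate mice or cultures. The p-values below thus rest on the spread of libraries alone, which may be technical.

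Pairs of values are given as replicate 1 and replicate 2 of a group. Total counts ran from 14191401 to 15955863 per library. Mthfd2 was measured at 280 and 280 CPM (counts scaled to a common library size with TMM factors) for WT, versus 222 and 252 CPM for KO, with a log2 fold change of -0.24 ± 0.14 (SE) and an adjusted p of 0.324 in edgeR's quasi-likelihood test. A count over the whole gene cannot show the loss of some exons, so the direction KO over WT rests on the labels. Per length of exon, Cd8a stood at 3.43 to 4.43 times the level of Cd4 in the 4 libraries, contrary to the CD4+ label. The MHC class II gene H2-Ea, or its entry H2-Ea-ps, had 2 and 0 counts (WT) versus 0 and 0 (KO). H2-Eb1 had 8817 and 4458 counts (WT) versus 2437 and 2056 (KO). The strain of the cells that gave class II RNA was not tested. The first principal component set the WT libraries, at -65.1 and -19.6, apart from the KO libraries, at 43.8 and 40.9. WT replicate 1 lay farthest from the KO libraries, and the WT libraries were farther from each other than the KO libraries were.

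Cholesterol is built from acetyl-CoA. The early, mevalonate part of the route makes isoprenoid units, which are joined to squalene, closed into lanosterol and trimmed to cholesterol. Isoprenoids also leave the route as lipid anchors of proteins and as dolichol and ubiquinone. The genes are switched together by the SREBP factors, membrane proteins of the endoplasmic reticulum. SCAP carries them to the Golgi when sterols are low, proteases cut them free there, and INSIG proteins hold them back when sterols are plentiful. Activated T cells are known to raise this programme as they grow and divide.

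The promoter of Hmgcs1, the cytosolic HMG-CoA synthase, is a textbook target of SREBP2, and its sequence is shown because among the windows of the 32 genes it alone held the exact core of a sterol regulatory element (SRE). RefSeq windows on GRCm38.p6, from 250 bases before to 50 after a start site, were at hand for 27 of the 32 genes (35 windows). The SRE core searched was TCACNCCAC on both strands, and the 1 match is 2.86% of the 35 windows, beside 1.12% of windows of genes tested and 1.24% of all windows. The 250 bases before the Hmgcs1 start site lie at chr13:119690101-119690350 on the plus strand, with the core in capitals 137 bases before the start site.
Hmgcs1: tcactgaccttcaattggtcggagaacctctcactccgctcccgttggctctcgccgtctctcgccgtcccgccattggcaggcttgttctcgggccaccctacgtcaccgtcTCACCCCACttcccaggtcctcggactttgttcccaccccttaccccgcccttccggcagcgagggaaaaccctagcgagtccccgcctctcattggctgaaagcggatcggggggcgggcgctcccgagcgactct

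Allowing 1 mismatch gave matches in 10 of the 35 windows (28.6%), beside 25.6% of the 12133 windows of genes tested, a share close to the background. Sites of this kind in 4 further called genes and in Srebf2, which was added after its values were seen, are printed 5′ to 3′ on the strand of the core, which is in capitals, with up to 10 bases on each side. Srebf2 encodes SREBP2 itself, and the other genes are enzymes whose changes are given below. Msmo1 and Acat2 held 2 such sites each, of which the one farther from the start site is shown. Positions in a core are counted from 1 at its 5′ end, and the base of the searched core is named first. Coordinates are on GRCm38.p6, on the minus strand for Msmo1 and Acat2 and on the plus strand for the others.
Srebf2 (C9T, chr15:82147097-82147125): tgacgcaccaTCACCCCATgagccgcttc
Msmo1 (C9T, chr8:64733737-64733765): ctcactattcTCACTCCATccgcgcagcc
Acat2 (T1A, chr17:12960889-12960917): tggatcctccACACCCCACcctaacccga
Nsdhl (C7A, chrX:72918306-72918334): gcacttaccaTCACCCAACggactctgcc
Dhcr7 (C6T, chr7:143823259-143823287): ggaaaagggcTCACTTCACcttatagctc

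Boxes of 3 partner factors were searched in the same windows. The NF-Y box CCAAT was found in 23 of the 35 windows (65.7%, beside 38.2% of windows of tested genes and 37.4% of all 32851 windows). The GC box GGGCGG stood in 27 windows (77.1%, beside 62% and 35.7%). The E-box CACGTG stood in 6 (17.1%, beside 10% and 7.15%). By gene the counts were 22, 23 and 5 of 27. Windows of a gene can overlap, and the 2 windows of Scap hold the same E-box. Both strands were searched, no 2 of these motifs are the same letters, and matches of different motifs may overlap. A match is a description of the letters and not a site of binding.

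**Figure D1:**
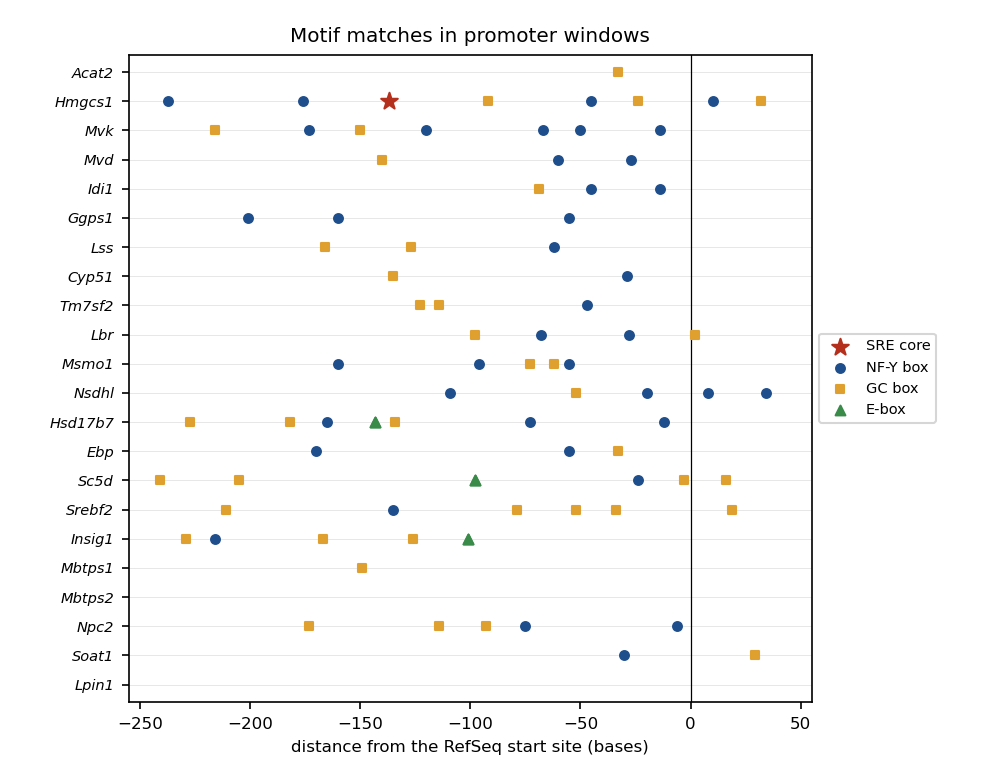
Matches to 4 motifs (symbols) by distance in bases from the RefSeq start site, for the 22 genes with 1 promoter window. The SRE core appears once, in Hmgcs1 at -137, while NF-Y and GC boxes appear in most rows.

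Many enzymes of the route rose in KO libraries. Of the 32 genes, 12 rose and 0 fell in edgeR's test over all genes (Benjamini-Hochberg adjusted p under 0.05), beside 2.39% of all genes tested that rose and 1.56% that fell. By unadjusted p (under 0.05) 25 were higher and 0 lower, beside 12.8% and 12.7% of all genes tested, and DESeq2 and limma-voom likewise called 0 lower. The median log2 fold change was 1.43, beside -0.0026 over all genes tested. In 29 of the 32 genes both KO libraries lay above both WT libraries, which held for 29.8% of all genes tested. Mbtps2 was the 1 gene with both KO libraries below both WT libraries (30.1% of all genes tested), and Scap and Mbtps1 overlapped. The same libraries also differed in 3 of 5 T cell markers, which were higher in KO, and in 4 of 7 B cell markers, which were lower. Their values, and those of CD4 and CD8 markers, of which 0 were called, are given at the end. In bulk RNA fewer cells of a type and less RNA per cell cannot be told apart.

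**Figure D2:**
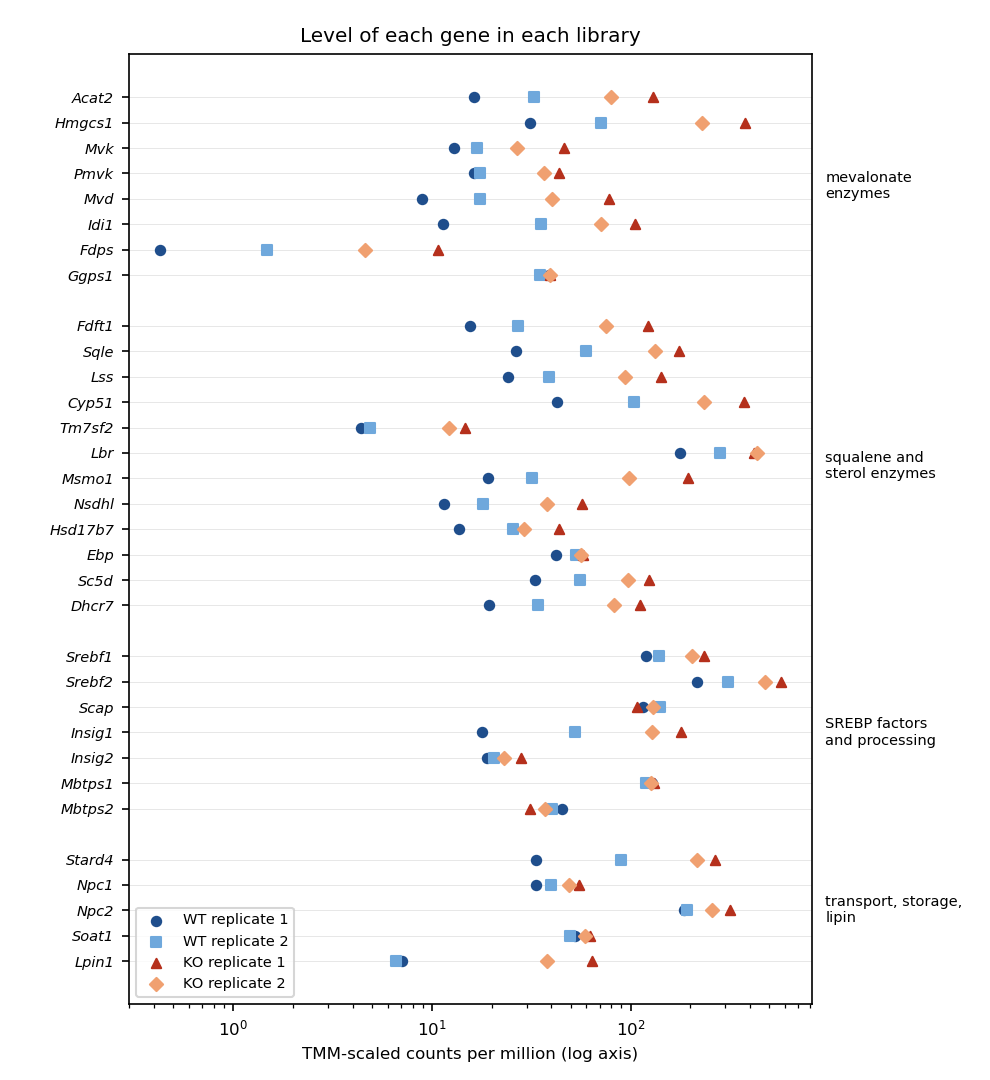
TMM-scaled CPM of each gene in each library on a log axis, grouped by role. For 29 of the 32 genes the KO libraries (triangles and diamonds) lie to the right of the WT libraries (circles and squares).

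Among the 8 mevalonate enzymes 4 rose, 0 fell and 4 were not called, with a median log2 fold change of 2.01. The summed level of the 8 was 137 and 227 CPM (WT) versus 831 and 528 CPM (KO). Acat2 makes acetoacetyl-CoA at the entry of the route. It stood at 16.4 and 32.6 CPM (WT) versus 130 and 79.8 CPM (KO). The groups did not overlap, and the log2 fold change was 2.10 ± 0.37 (SE, edgeR adjusted p = 0.0406). Of the 50-base stretches of the Acat2 exons, 45.9% also occur in Acat3, so its counts are uncertain, and it was not called with upper quartile scaling.

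Hmgcs1, whose promoter is printed above, was the second most changed of the called genes. Its level was 31.3 and 70.7 CPM in WT libraries against 377 and 229 CPM in KO libraries, and every KO value was above every WT value. The log2 fold change was 2.57 ± 0.42 (edgeR adjusted p = 0.0400) and remained called without WT replicate 1, at 2.11. It shares 13.6% of its 50-base stretches with Gm48342, a gene on the opposite strand, and the use of strand in counting is not given in the sources used here.

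Pmvk and Mvd carry out the last phosphorylation and the decarboxylation that gives the isoprenoid unit. Pmvk stood at 16.4 and 17.4 CPM (WT) versus 43.6 and 36.6 CPM (KO), so that the replicates of each group lay close together. Its log2 fold change was 1.25 ± 0.19 (edgeR adjusted p = 0.0361). Mvd stood at 8.92 and 17.6 CPM (WT) versus 77.6 and 40.2 CPM (KO), a wider spread within both groups. Its rise of 2.15 ± 0.41 (edgeR adjusted p = 0.0447) was lost without WT replicate 1 (1.75, edgeR adjusted p = 0.0538) and with upper quartile scaling or library size only.

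The other 4 mevalonate genes did not pass the test. Mvk, mevalonate kinase, had a log2 fold change of 1.3 ± 0.30 (edgeR adjusted p = 0.0605), and Idi1, the isomerase of the isoprenoid unit, one of 1.92 ± 0.49 (edgeR adjusted p = 0.0746). Without WT replicate 1 Idi1 was called, at 1.33 (edgeR adjusted p = 0.0412), as it was with limma-voom and with the replicate block but not with DESeq2. Fdps makes farnesyl diphosphate. It had 7 and 22 counts (WT) versus 152 and 64 (KO). These counts are low and uncertain, because 86.4% of the 50-base stretches of its transcript occur in other annotated genes, 8 in number. Its log2 fold change of 3.01 ± 0.70 (edgeR adjusted p = 0.0603) was the highest of the 32, and without WT replicate 1 it was 2.37 (edgeR adjusted p = 0.0962). The share of such stretches was 30.5% for Idi1. Ggps1 makes geranylgeranyl diphosphate for protein anchors, off the sterol branch. It lay between 35.2 and 39.4 CPM in all 4 libraries (0.09 ± 0.16, edgeR adjusted p = 0.767).

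Of the 12 enzymes from squalene to cholesterol 7 rose, 0 fell and 5 were not called, with a median log2 fold change of 1.76. Their summed level was 429 and 737 CPM (WT) versus 1831 and 1383 CPM (KO). In all 12, both KO libraries lay above both WT libraries. Fdft1 (squalene synthase), the first enzyme committed to sterols, had 15.6 and 27.2 CPM (WT) versus 122 and 75.4 CPM (KO). KO replicate 1 was the highest and WT replicate 1 the lowest. The log2 fold change was 2.21 ± 0.34 (edgeR adjusted p = 0.0362), and 30.7% of its 50-base stretches are shared with 2 other genes, 19.9% with Ctsb on the opposite strand.

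Sqle oxidises squalene and is a point of control of the route. It stood at 26.6 and 59.8 CPM (WT) versus 176 and 132 CPM (KO), with no overlap. At 1.84 ± 0.37 its edgeR adjusted p of 0.0498 was just inside the threshold, and with upper quartile scaling or library size only it was no longer called. Lss, which closes the ring of lanosterol, stood at 24.2 and 38.9 CPM (WT) versus 142 and 94.1 CPM (KO). Both KO libraries were again higher (1.90 ± 0.30, edgeR adjusted p = 0.0385).

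Msmo1, the sterol C4-methyl oxidase, showed the strongest rise among the sterol enzymes. Its level was 19.2 and 31.9 CPM (WT) versus 194 and 98.2 CPM (KO). Both KO libraries lay far above both WT libraries (2.51 ± 0.38, edgeR adjusted p = 0.0362). Nsdhl works in the same demethylation. It had 11.5 and 18 CPM (WT) versus 57.1 and 38 CPM (KO) (1.68 ± 0.30, edgeR adjusted p = 0.0400).

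Dhcr7 makes cholesterol from 7-dehydrocholesterol in the last step. It stood at 19.5 and 34.3 CPM (WT) versus 112 and 83.0 CPM (KO), a rise of 1.86 ± 0.30 (edgeR adjusted p = 0.0397). Tm7sf2 and Lbr encode 2 sterol C14-reductases, and Lbr is also a receptor of the inner nuclear membrane that binds lamin B. Tm7sf2 was the scarcer, with 72 and 72 counts (WT) versus 208 and 171 (KO), or 4.40 and 4.87 against 14.7 and 12.3 CPM. Its rise of 1.54 ± 0.28 (edgeR adjusted p = 0.0415) was lost without WT replicate 1 (edgeR adjusted p = 0.0677) and with those same 2 scalings. Lbr stood at 177 and 283 CPM (WT) versus 418 and 431 CPM (KO). It did not pass (0.89 ± 0.23, edgeR adjusted p = 0.0769).

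Cyp51, which removes the C14 methyl group of lanosterol, missed the threshold by little. It had 42.5 and 104 CPM (WT) versus 370 and 236 CPM (KO) (2.05 ± 0.43, edgeR adjusted p = 0.0506). WT replicate 1 was far below the rest, and without it Cyp51 was called (1.54, edgeR adjusted p = 0.0324). Sc5d, the sterol C5-desaturase, was also close to the threshold (1.32 ± 0.27, edgeR adjusted p = 0.0502). Hsd17b7, a ketosteroid reductase of the demethylation complex (0.90 ± 0.34, edgeR adjusted p = 0.165), and Ebp, a sterol isomerase (0.26 ± 0.17, edgeR adjusted p = 0.395), lay farther from it.

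**Figure D3:**
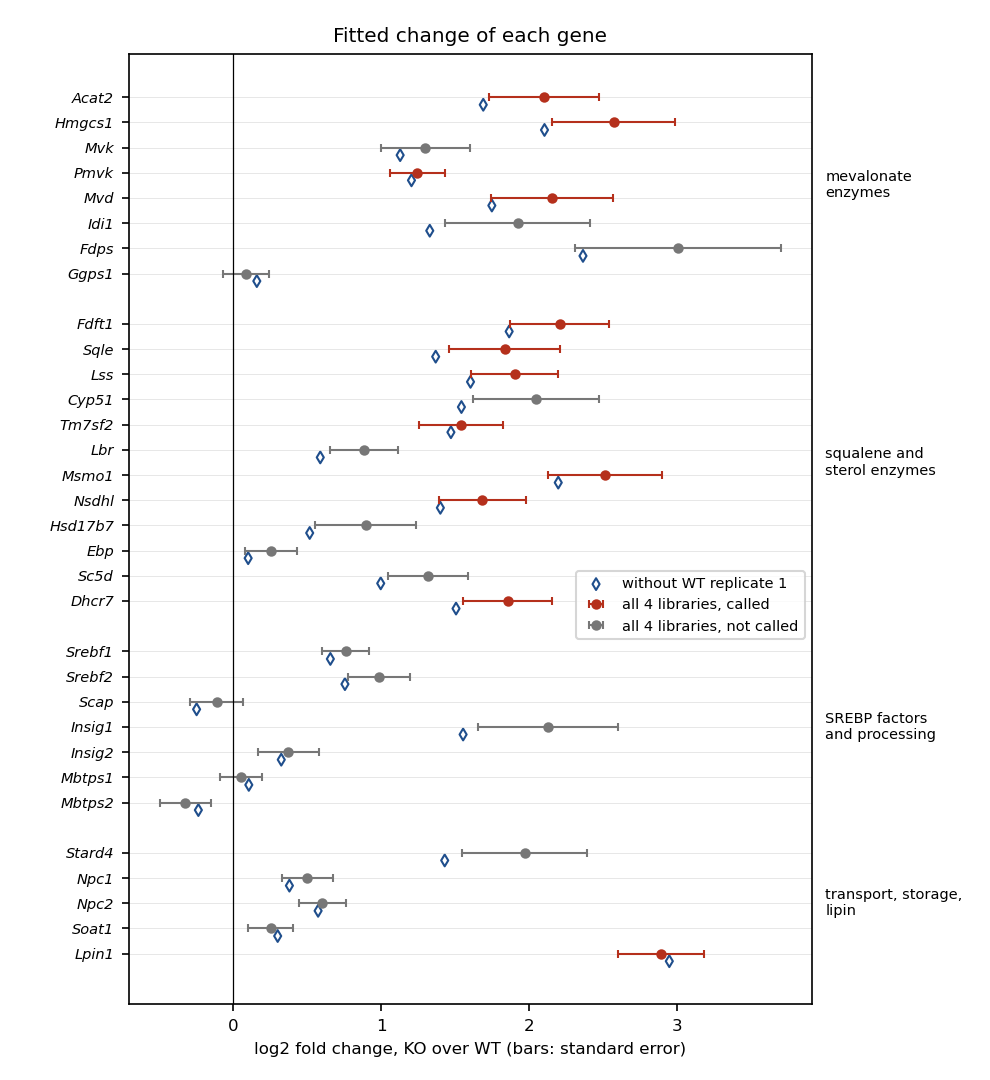
Log2 fold change of KO over WT with its standard error for each gene (filled points, red where called), and the value without WT replicate 1 (open diamonds). Most diamonds lie left of the filled points, and Scap and Mbtps2 lie below 0 in both fits.

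Of the 7 genes of the SREBP factors and their processing, 0 passed edgeR's test, while 3 had an unadjusted p under 0.05, all higher. DESeq2 and limma-voom each called 3, Srebf1, Srebf2 and Insig1. The median log2 fold change was 0.38. Srebf2, the factor of the sterol genes, stood at 216 and 310 CPM (WT) versus 570 and 474 CPM (KO). The groups did not overlap, but the value of 0.99 ± 0.21 did not pass (edgeR adjusted p = 0.0513). Srebf1, whose products drive fatty acid as well as sterol genes, stood at 119 and 139 CPM (WT) versus 233 and 203 CPM (KO) (0.76 ± 0.16, edgeR adjusted p = 0.0510).

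INSIG proteins are encoded by a pair of genes. Insig1, itself induced by SREBP, stood at 18 and 52.6 CPM (WT) versus 180 and 128 CPM (KO). Within WT the libraries differed 2.93-fold, and the log2 fold change of 2.13 ± 0.47 did not pass (edgeR adjusted p = 0.0559). Without WT replicate 1 it was called, at 1.56 (edgeR adjusted p = 0.0244). Insig2 stood at 19.1 and 20.5 CPM (WT) versus 28.2 and 23.2 CPM (KO). Both KO libraries lay above both WT libraries, and the value of 0.38 ± 0.20 did not pass (edgeR adjusted p = 0.294). The difference between both INSIG genes was not tested.

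The carrier and the proteases had values near 0. Scap stood at 115 and 141 CPM (WT) versus 108 and 130 CPM (KO), so the groups overlapped (-0.11 ± 0.18, edgeR adjusted p = 0.741). Mbtps1, the first protease to cut, gave 0.05 ± 0.14 (edgeR adjusted p = 0.851). Mbtps2, the protease that cuts within the membrane, gave -0.32 ± 0.17 (edgeR adjusted p = 0.286).

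In the group of sterol transport, storage and lipin 1 of 5 rose, Lpin1, with a median of 0.60. Lpin1 encodes a phosphatidate phosphatase that also acts in the nucleus and is linked to SREBP control. It had 116 and 98 counts (WT) versus 903 and 533 (KO), or 7.09 and 6.62 CPM against 63.8 and 38.2 CPM. The WT libraries were nearly equal and both far below the KO libraries. Its rise of 2.89 ± 0.29 had the lowest adjusted p of the 32 (edgeR adjusted p = 0.0199) and was 2.95 without WT replicate 1. Stard4, a carrier of sterols between membranes, stood at 33.5 and 89.8 CPM (WT) versus 266 and 217 CPM (KO). It was not called with all libraries (1.97 ± 0.43, edgeR adjusted p = 0.0533), and was called without either WT library.

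The genes that handle sterols from endocytosed lipoprotein had smaller values. Npc2, the lysosomal protein that binds cholesterol, had a log2 fold change of 0.60 ± 0.16 (edgeR adjusted p = 0.0800) and its membrane partner Npc1 one of 0.50 ± 0.17 (edgeR adjusted p = 0.138). Soat1, which stores cholesterol as esters, had one of 0.26 ± 0.15 (edgeR adjusted p = 0.332). In all 3 both KO libraries lay above both WT libraries.

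Per length of exon, the order of the genes also differed between the groups. In WT libraries Lbr (48.3 CPM per kb), Srebf2 (36.6) and Npc2 (34.8) were the most abundant of the 32, and Hmgcs1 (11.1), Insig1 (11.4) and Cyp51 (16.6) stood lower. Mean levels in KO libraries were 89.2 CPM per kb for Lbr, 72.7 for Srebf2, 68.6 for Cyp51, 66.0 for Hmgcs1 and 52.9 for Npc2. Fdps was the lowest in both groups (0.228 and 1.82 CPM per kb), with the limit on its reads given above. Lengths are the union of all annotated exons, which for Lss comes to 10787 bases and lowers its value per kb.

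The libraries of a group were spread along the same direction as the groups. WT replicate 2 was above WT replicate 1 in 27 of the 32 genes (49.7% of all genes tested), with a median ratio of 1.58. KO replicate 1 was above KO replicate 2 in 28 of 32 (48.7% of all genes), with a median ratio of 1.3. The full order WT replicate 1, WT replicate 2, KO replicate 2, KO replicate 1 was found in 25 of the 32 genes, beside 11.5% of all genes tested. Among the called genes Lpin1, Pmvk and Tm7sf2 had the closest WT libraries, with WT replicate 2 at 0.935, 1.07 and 1.11 times WT replicate 1. Several genes not called, such as Npc2 (1.04) and Soat1 (0.944), had close WT libraries as well.

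The calls depended on which libraries entered. Without WT replicate 1, 15 of the 32 genes rose (2.21% of all genes), 10 of the 12 among them, and the median was 1.27. Without WT replicate 2, 23 rose (10.7% of all genes). Without KO replicate 1 or without KO replicate 2, edgeR called 0 of the 32 and 0% of all genes, while 22 and 24 of the 32 were higher, and 0 lower, by unadjusted p. Over all genes 5.72% were higher and 6.36% lower by unadjusted p without KO replicate 1, and 8.07% and 8.05% without KO replicate 2. The medians there were 1.25 and 1.65. In these fits the spread comes from 1 group alone, and the single library of the other is assumed to vary like it. With all libraries DESeq2 called 22 higher (6.74% of all genes) and limma-voom 19 (2.95%), each with all 12 among them.

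Further genes of the route and its targets were read from the same test. The mitochondrial thiolase Acat1 had a log2 fold change of 0.64 and the electron donor Por one of 0.39, with edgeR adjusted p of 0.114 and 0.171. The retinol dehydrogenase Rdh11, a target of SREBP2, had a value of 1.13 ± 0.23 (edgeR adjusted p = 0.05002, not under the threshold).

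The branches that use isoprenoids had values near or below 0. Of 13 genes for protein prenylation, dolichol and ubiquinone, 0 passed edgeR's test, 2 had lower values with an unadjusted p under 0.05, 0 had higher ones, and the median was -0.16. Over all genes tested 12.7% were lower by unadjusted p, so 2 of 13 is near the background. Rabggta, a subunit of the enzyme that prenylates Rab proteins, had the largest value (-0.60, edgeR adjusted p = 0.211), followed by the processing protease Rce1 (-0.49, edgeR adjusted p = 0.243). Neither was among those 2, with edgeR unadjusted p of 0.0576 and 0.0770. WT replicate 1 was the highest library for both. Of 12 genes that sense sterols or act on the turnover of proteins of the route, 0 passed as well, again with 2 lower and 0 higher by unadjusted p, a count near that same background, and the median was -0.12. Among them Erlin1 had a value of -0.57 (edgeR adjusted p = 0.140). Neither list was tested against the sterol enzymes.

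Fatty acid genes that SREBP1 controls rose in part, 2 of 12, with 0 lower and a median of 0.56. Over all genes tested 2.39% rose and 1.56% fell. By unadjusted p (under 0.05) 8 of the 12 were higher and 0 lower, beside 12.8% and 12.7% of all genes tested. Of the 12, 4 had values below 0 and were not called: Scd1 (-0.90), Acaca (-0.27), Me1 (-0.13) and Fasn (-0.10). Scd2, a desaturase, stood at 195 and 449 CPM (WT) versus 1684 and 1220 CPM (KO) (2.17 ± 0.39, edgeR adjusted p = 0.0408). Fads2, the delta-6 desaturase, had 1 and 22 counts (WT) versus 422 and 200 (KO). Its log2 fold change was 4.86 ± 0.88 (edgeR adjusted p = 0.0414), and 3.89 without WT replicate 1. With upper quartile scaling neither was called, and with limma-voom Fads2 was not. Fads1 (1.39, edgeR adjusted p = 0.0823) and Elovl6 (1.38, edgeR adjusted p = 0.0924) did not pass. Of the other lipins, Lpin2 gave 0.29 (edgeR adjusted p = 0.314) and Lpin3 had too few counts to be tested.

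Genes of sterol efflux fell in part. Of 17 genes for efflux, storage and oxysterols, 12 were tested, 2 fell and 0 rose, with a median of -0.33. Over all genes tested 1.56% fell and 2.39% rose. By unadjusted p 5 of the 12 were lower and 2 higher, beside 12.7% and 12.8% of all genes tested. Gramd1a was higher in both KO libraries than in both WT libraries (0.76, edgeR adjusted p = 0.0513). Abca1 and Abcg1, transporters that export sterols and are induced by the oxysterol receptor LXR, were the 2. Abca1 stood at 68.8 and 21.4 CPM (WT) versus 1.63 and 2.80 CPM (KO) (-4.35 ± 0.62, edgeR adjusted p = 0.0327). Abcg1 stood at 114 and 51.4 CPM (WT) versus 15.3 and 23.2 CPM (KO) (-2.10 ± 0.40, edgeR adjusted p = 0.0438). Without WT replicate 1, the highest library for both, the values were -3.26 and -1.41. With upper quartile scaling or limma-voom Abcg1 was not called, and with limma-voom Abca1 was not called. Mylip, a ubiquitin ligase induced by LXR, gave -1.72 ± 0.47 (edgeR adjusted p = 0.0851), and Apoe gave -0.76 (edgeR adjusted p = 0.190).

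**Figure D4:**
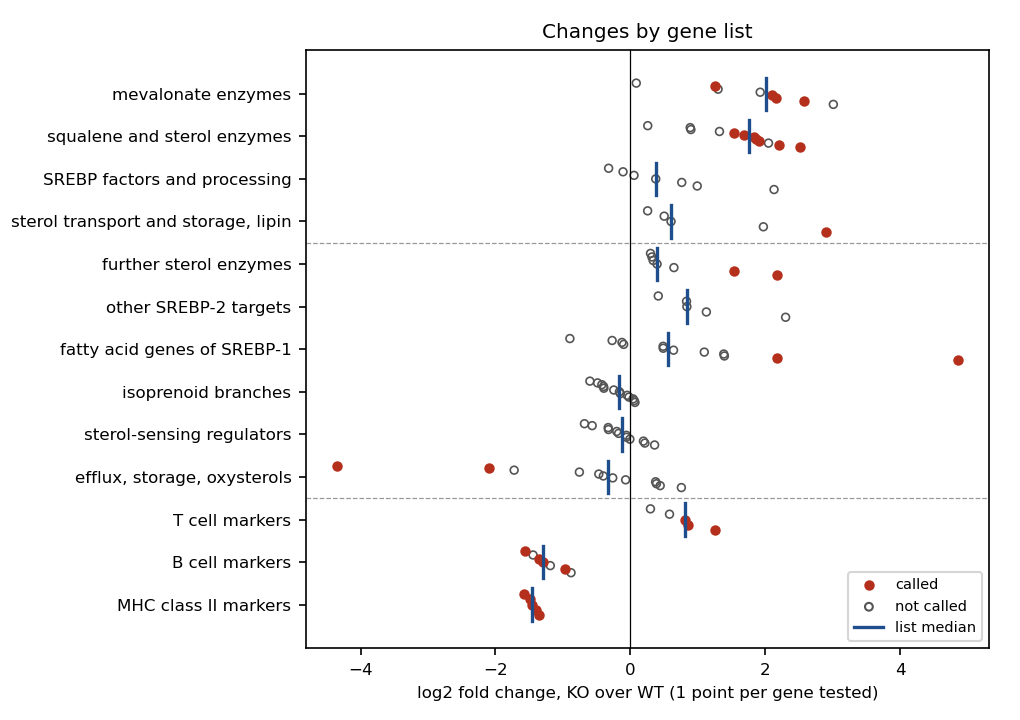
Log2 fold change of KO over WT for each gene tested (points, red where called) in the 4 groups of the 32 genes, the further pathway lists and 3 marker lists, with the list median (blue bar). The 2 enzyme groups have medians of 2.01 and 1.76, isoprenoid branches -0.16, and B cell markers -1.3.

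Markers of cell types moved in the same comparison, in which 2.39% of all genes tested rose and 1.56% fell. Of 5 T cell markers measured, 3 rose (Cd3e, Cd3d and Cd3g) and 0 fell, and their summed level was 943 and 1000 CPM (WT) versus 1571 and 1581 CPM (KO). Of 3 CD4 and 2 CD8 T cell markers 0 were called. Cd40lg went the other way (-0.92, edgeR adjusted p = 0.0875), and Zbtb7b overlapped between the groups. Cd4 had a log2 fold change of 0.35, Cd8a one of 0.21 and Cd8b1 one of 0.56. The natural killer cell markers Ncr1 (-2.34) and Klrb1c (0.79) were scarce and not called. Of 7 B cell markers 4 fell and 0 rose, with a summed level of 1187 and 728 CPM (WT) versus 423 and 360 CPM (KO). All 5 MHC class II genes fell, from 3780 and 2241 to 1176 and 1007 CPM in sum. Of 10 myeloid and dendritic cell markers 7 were tested and 1 fell (Spi1). Itgax (0.45) and Xcr1 (0.78) had values above 0 and were not called, and 3 of the 7 overlapped between the groups. All 10 had a sum of 54.1 and 33.4 against 18.7 and 13.4 CPM. Spi1 alone made up 27.4 and 19.3 against 4.95 and 3.15 CPM of it, and Siglech had 0 counts in both KO libraries. Of 4 erythroid markers 2 fell, with a sum of 124 and 32 against 6.86 and 3.08 CPM. Cd3g, the most changed T cell marker, had a log2 fold change of 1.26. The part of these markers in the changes of the sterol genes was not tested.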

How the data were processed

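RNA was extracted with Trizol, treated with DNase I and depleted of ribosomal RNA, per the labels' protocols. The authors deposited 1 table per library of whole-number read counts per gene symbol, not normalized. Per the submitters' processing notes, Subread 2.0.1, featureCounts, DESeq2 1.30.1, R 4.0.4 and the build mm10 were used, with no role stated. Which aligner, annotation, strand setting and handling of multiply matching reads made the tables is not given in the sources used here.

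From these counts KO was tested against WT with edgeR 4.0.16 (R 4.3.3): filterByExpr (minimum count 10, minimum total count 15), TMM factors (0.968 to 1.027) and the quasi-likelihood test over 12752 genes, without covariates, called at a Benjamini-Hochberg adjusted p under 0.05. The SE is the log2 fold change divided by the root of F. CPM used TMM-adjusted totals. DESeq2 1.42.0 and limma-voom (limma 3.58.1), other scalings, no filter, a replicate block and leaving out each library were alternatives. Replicates spread beyond counting error (chi-square per degree of freedom 37.4 for WT and 15.2 for KO).

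Gene positions, exon lengths and shared 50-base stretches came from GENCODE M21 (GRCm38, the assembly called mm10), promoters from RefSeq. Matches to other genes were sought in annotated transcripts on both strands. Counts and CPM of every library are given for genes called, for the SREBP and INSIG genes and Lpin1. The other genes are given by value, and of each further list the called genes and up to 2 others with the largest values are named. Some genes of these lists are not reported here. Further values of single libraries, such as those of Cyp51, Stard4, Lbr and Fdps, were chosen after the values were seen. The printed Srebf2 site, the fatty acid genes below 0 and Gramd1a were likewise added. So were the counts of H2-Ea and H2-Eb1 and the single CD4, CD8, myeloid and natural killer cell markers. The genes and lists were chosen with earlier results of these data known. Of 42 cell markers, 39 were in the tables.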

Additional observations from a re-analysis of the deposited data

How the results depend on the processing

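Of the 32 genes, 12 rose with all libraries, 13 with relative log expression scaling, 8 with upper quartile scaling (Acat2, Mvd, Sqle and Tm7sf2 lost) and 9 with library size only (Mvd, Sqle and Tm7sf2 lost). The number was 23 without the filter on low counts, 22 with DESeq2, 19 with limma-voom and 20 with the replicate block, each holding all 12. Leaving out 1 library gave 0 to 23. In each of these fits 0 fell, and the median log2 fold change lay between 1.25 and 1.68. Scap and Mbtps2 were the genes below 0, Scap not in every fit, and no called gene changed sign.

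Over all genes 305 were higher and 199 lower. The counts were 737 and 682 without the filter, 860 and 783 with DESeq2, 488 and 401 with the replicate block, and 122 lower with upper quartile scaling. Leaving out 1 library gave 0 to 1432 higher and 0 to 1127 lower. Of the further lists together 4 genes rose and 2 fell. These counts were 1 and 1 with upper quartile scaling, 13 higher without the filter, 13 and 4 with DESeq2, 0 lower with limma-voom, 8 higher with the replicate block, and 0 to 17 higher and 0 to 9 lower without 1 library. The cause of these differences was not tested.

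The labels give both groups replicates 1 and 2 without saying what a number shares. Deviations of the replicates numbered 1 correlated at 0.0397 over genes. With 2 libraries per group this value cannot show whether libraries of the same number were paired. The block was thus used as an alternative only. The share of promoter windows with the SRE core went from 2.86% to 28.6% with 1 mismatch. With 2 libraries per group, and with 7 counts for Fdps in WT replicate 1, differences in scarce genes were measured with little precision.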
